A study of Mus musculus with 8 samples.

Results

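The genes described here are 10 genes of the MHC class I pathway, taken by their symbols from the 750 immune genes of a NanoString nCounter mouse panel. They are the heavy chains H2-D1, H2-K1, H2-T23 and H2-M3, the peptide transporter genes Tap1 and Tap2, Tapbp, the immunoproteasome genes Psmb8 and Psmb9, and Nlrc5. The panel was read on RNA of whole peritoneal tumors grown from MC38, a mouse colon cancer cell line, in wild-type male C57BL/6 mice aged 7 to 8 weeks. Treated mice received 2 intraperitoneal injections of 15 µg of the STING agonist RR-CDA, the first given 7 days after implantation, and control mice received PBS. Tumors were collected 10 days after the first injection, 4 from each group. The question was how the immune gene expression of the tumor differs after STING activation.

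MHC class I molecules show peptides from inside the cell to CD8+ T cells and are read by natural killer cells. Proteins are cut by the proteasome, whose interferon-inducible form carries the subunits Psmb8 and Psmb9. The peptides are carried into the endoplasmic reticulum by the transporter made of Tap1 and Tap2 and are loaded with the help of tapasin, the product of Tapbp. Interferons raise the transcription of these genes through factors that include IRF1 and the transactivator NLRC5.

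In each tumor the counts of the 750 genes summed to between 241506 and 414698, and each of the 10 genes averaged 20 counts or more, the lowest being 203 raw counts for Tap2. PBS controls 2 and 4 differed by less than the sampling noise in 358 moderately expressed genes, where their chi-square per degree of freedom was 0.404 and that of the 11 other pairs within a group was 5.89 to 12.6. In 61 highly expressed genes they differed by more than sampling noise, at 6.39, with the other pairs at 45.1 to 364. Their mean was used and counted as 1 sample, so that n = 3 for controls and n = 4 for treated tumors. Normalized counts are counts divided by the geometric mean of 20 housekeeping genes, set to average 1 over the samples. The labels do not say that the tumors came from separate mice, so p-values may measure a spread that is only technical. The study pooled tumors from separate experiments, and no comparison within an experiment was made because the sources used here do not name the experiment of each tumor.

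The housekeeping scaling placed the panel median, over 750 genes, at a log2 fold change of 0.21, and it moved to -0.021 under TMM scaling and -0.035 with the size factors of DESeq2. The median of the 10 genes was 0.41 with housekeeping scaling, 0.16 with TMM and 0.14 with DESeq2 size factors. Relative to the panel median it was higher by 0.20, 0.18 and 0.18 in the same order. With housekeeping scaling and a filter at a mean of 20 counts, the medians of the 10 genes and of the panel were 0.409 and 0.255. The excess over the panel median also depended on single controls. With housekeeping scaling the medians of the 10 genes and of the panel were 0.391 and 0.362 without PBS control 3. Without PBS control 1 they were 0.479 and 0.176. Under each of the 3 scalings 9 of the 10 genes lay above the panel median, and H2-D1 lay below it. Without PBS control 3, H2-K1 (0.29), H2-M3 (0.17) and Psmb8 (0.25) also lay below the panel median. With housekeeping scaling all 10 log2 fold changes were above 0, where 70.8% of the panel was, while H2-D1 turned below 0 under TMM, and H2-D1 and H2-M3 did with DESeq2 size factors.

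After adjustment over the panel, 0 of the 10 genes had a p under 0.05 in edgeR's quasi-likelihood test, and 0 of the 750 (0%) did, with a lowest adjusted p of 0.171. The panel count in the same test was 7 without STING agonist 3 and 1 without PBS control 3, and the count among the 10 was 0 in both. At an unadjusted p under 0.05, 6 of the 10 were higher in the treated tumors (H2-K1, H2-T23, Tap1, Tap2, Psmb9 and Nlrc5) and 0 lower, against 133 of 750 higher (17.7%) and 10 lower. With a filter at a mean of 20 counts, which all 10 pass, the same 6 were higher, against 119 of 519 panel genes (22.9%). In bulk tissue, more cells of a type and more RNA per cell cannot be told apart. The Wald test of DESeq2 gave 2 of the 10, H2-T23 and Nlrc5, an adjusted p under 0.05, where 52 of the 536 genes it adjusted passed (9.7%), and limma gave 0. The count of 6 was 2 under TMM and 2 with DESeq2 size factors, H2-T23 and Nlrc5 in each case, where the panel split into 87 higher and 40 lower, and 81 higher and 45 lower. It was also 2 without STING agonist 1 or without STING agonist 4, 3 without PBS control 3, and 3 with controls 2 and 4 both left out. The panel count of 133 was 77 without STING agonist 1, 79 without STING agonist 4, 153 without PBS control 3 (20.4%) and 90 with controls 2 and 4 left out (12%). All treated tumors lay above all controls in 4 of the 10 genes, H2-K1, H2-T23, H2-M3 and Tap1, against 126 of 750 (16.8%), and all lay below in 0 of the 10 and 11 of 750. Under TMM or DESeq2 size factors only H2-T23 of the 10 was still apart, beside 9.33% and 9.07% of the panel, a share near the background. Without PBS control 1 the count was 7, beside 20.7% of the panel, without PBS control 3 it was 6, beside 31.3%, and without STING agonist 3 it was 8, beside 22.8%.

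**Figure D1:**
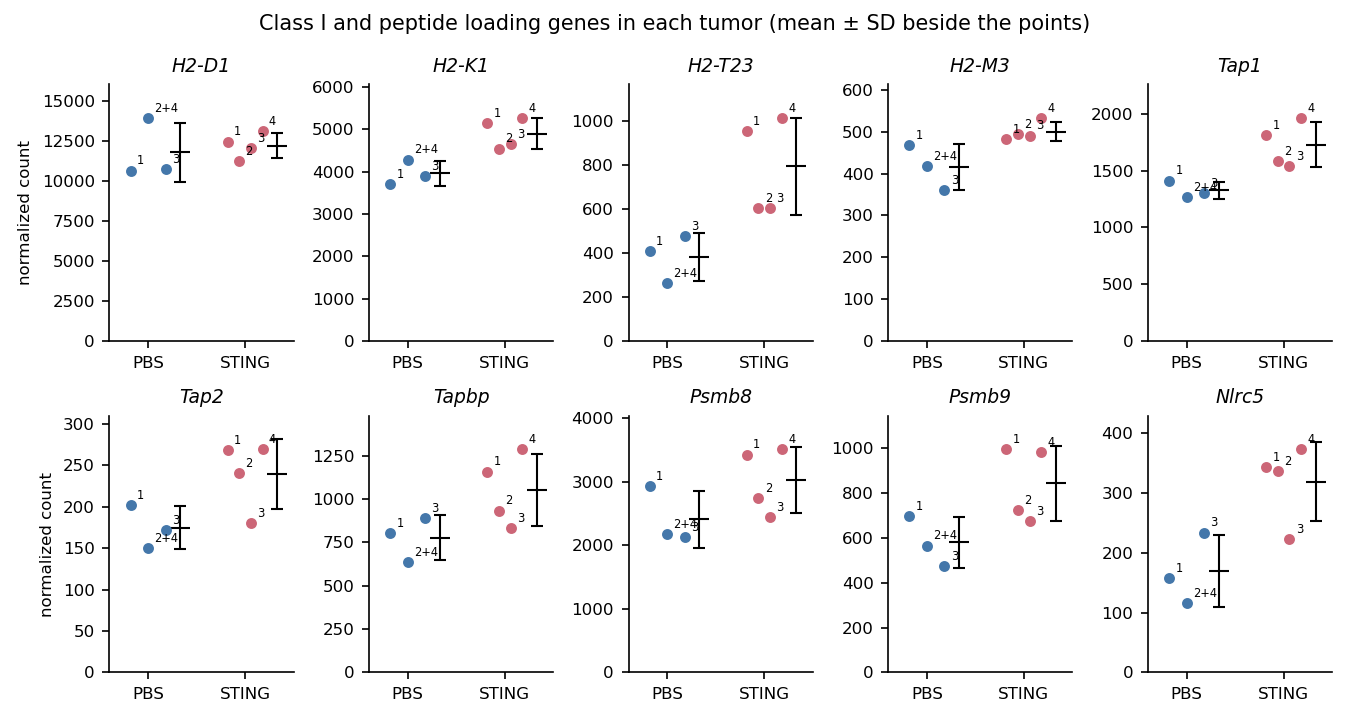
Normalized counts (y axis, from 0) of the 10 genes in each tumor, with PBS controls in blue (n = 3, controls 2 and 4 averaged) and STING agonist-treated tumors in red (n = 4), replicate numbers beside the points and bars for the mean ± SD. H2-T23 lay between 604 and 1014 in the treated tumors and between 261 and 476 in the controls, while the groups overlapped in H2-D1.

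H2-D1 and H2-K1 are the classical heavy chains, which present peptides to CD8+ T cells. H2-K1 was at 3711, 4287 and 3903 normalized counts in PBS controls 1, 2 and 4 averaged, and 3, and at 5146, 4546, 4649 and 5272 in STING agonist 1 to 4. The lowest treated tumor lay above the highest control. The means were 3967 ± 293 (SD, n = 3) and 4903 ± 359 (SD, n = 4), a fold change of 1.24. On the log2 scale this was 0.31 (SE 0.13, adjusted p = 0.25, edgeR), which is 0.093 above the panel median, and it was 0.044 under TMM and 0.031 with DESeq2 size factors. Without PBS control 3 the log2 fold change of H2-K1 was 0.29, below the panel median of 0.36. H2-D1 was at 10638, 13931 and 10753 in the controls and at 12450, 11233, 12055 and 13094 in the treated tumors. Its groups overlapped, and the averaged control held the highest value of all. The log2 fold change of H2-D1 was 0.052 (SE 0.15, adjusted p = 0.895, edgeR), and it was -0.22 under TMM.

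H2-T23 encodes Qa-1, a nonclassical class I molecule read by the receptor of CD94 and NKG2A on natural killer and T cells. Its normalized counts were 409, 261 and 476 in the controls and 954, 604, 605 and 1014 in the treated tumors. All 4 treated tumors lay above every control, with STING agonist 1 and 4 above the other 2. The mean went from 382 ± 110.1 (SD, n = 3) to 794 ± 220.5 (SD, n = 4), a fold change of 2.08, the largest among the 10 genes (exact permutation test, two-sided, p = 0.0286, the smallest that 35 arrangements allow). H2-K1, H2-M3 and Tap1 had the same exact p, at fold changes of 1.24, 1.2 and 1.3. All treated tumors lay above all controls in each of them, as in 16.8% of the panel. The log2 fold change of H2-T23 was 1.05 (SE 0.28, adjusted p = 0.171, edgeR, with 0.019 in the Wald test of DESeq2 and 0.019 to 0.384 over the alternatives). It was 0.81 under TMM and 0.80 with DESeq2 size factors. H2-M3, which presents formylated peptides, was at 468, 418 and 360.2 in the controls and at 482, 495, 490.5 and 533 in the treated tumors. The groups of H2-M3 did not overlap, by a gap of 468 to 482, and the log2 difference was 0.27 (SE 0.15, adjusted p = 0.354, edgeR), or -0.0058 with DESeq2 size factors.

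Promoters are shown for the heavy chains and for the start region that Tap1 and Psmb9 share, to let the letters of genes that differ in fold change be read side by side. RefSeq windows (GRCm38.p6) of 250 bases before to 50 after the start were found for 8 of the 10 genes, and Tap2 and Nlrc5 are named only. The motifs were chosen after the sequences and values had been seen, and both strands were searched over 32851 windows of the same length. Capitals mark matches to GAANNGAAA and to a longer form of it with 1 more A after the first GAA (forms of the interferon regulatory element), GGGNNTTCC (NF-kB-like), TGACGC (X2 box-like), CCAAT and TTCNNNGAA (GAS-like). The sequences run 5′ to 3′ on the strand of the gene and end at the base before its start, except that of H2-K1, which is a stretch of 30 bases that begins 111 bases before the nearer of its 2 RefSeq starts.
H2-D1, chr17:35262844-35263093, plus strand: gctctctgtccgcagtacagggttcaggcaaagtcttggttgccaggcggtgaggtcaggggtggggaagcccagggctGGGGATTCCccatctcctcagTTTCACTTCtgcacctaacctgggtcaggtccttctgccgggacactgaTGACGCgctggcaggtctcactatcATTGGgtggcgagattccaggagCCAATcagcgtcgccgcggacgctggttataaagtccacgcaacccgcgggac
H2-K1, chr17:34000429-34000458, minus strand: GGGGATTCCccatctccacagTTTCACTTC
H2-T23, chr17:36032702-36032951, minus strand: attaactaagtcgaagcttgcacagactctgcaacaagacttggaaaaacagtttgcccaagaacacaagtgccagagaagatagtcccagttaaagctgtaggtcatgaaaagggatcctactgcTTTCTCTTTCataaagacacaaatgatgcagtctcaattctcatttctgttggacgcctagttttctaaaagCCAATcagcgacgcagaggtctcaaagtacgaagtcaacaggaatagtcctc
H2-M3, chr17:37269984-37270233, plus strand: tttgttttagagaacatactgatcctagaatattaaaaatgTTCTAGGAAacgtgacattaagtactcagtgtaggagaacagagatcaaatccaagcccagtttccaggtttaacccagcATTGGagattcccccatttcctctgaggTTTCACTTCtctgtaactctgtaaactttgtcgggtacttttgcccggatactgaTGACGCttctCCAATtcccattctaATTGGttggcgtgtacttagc
Tap1 and Psmb9, chr17:34187331-34187555, plus strand, between the starts: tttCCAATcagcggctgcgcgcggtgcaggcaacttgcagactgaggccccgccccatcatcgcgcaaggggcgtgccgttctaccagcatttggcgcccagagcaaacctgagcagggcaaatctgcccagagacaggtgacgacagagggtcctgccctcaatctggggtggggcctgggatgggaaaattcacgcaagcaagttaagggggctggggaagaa

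GAANNGAAA was found in the windows of H2-D1, H2-K1 and H2-M3, as the same letters TTTCACTTC, and in 7.52% of all windows. H2-T23 held the longer form, which begins with GAAA in place of GAA and is found in 3.44% of windows. TGACGC was found in H2-D1, H2-K1 and H2-M3 and in 7.4% of windows, and GGGNNTTCC in H2-D1 and H2-K1 and in 5.82%. CCAAT was found in 7 of the 8 genes and in 37.4% of windows, and TTCNNNGAA in H2-M3 and Psmb8 and in 8.3%. The CCAAT matches of Tap1 and Psmb9 are the same site, in the start region that these genes share, counted for both. H2-D1 and H2-K1 held the same 4 kinds of motif, while their log2 fold changes were 0.052 and 0.31. A match describes the letters of a window and no binding was measured here.

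Tap1 and Tap2 form the transporter that moves peptides into the endoplasmic reticulum. Tap1 was at 1412, 1268 and 1299.7 normalized counts in the controls and at 1814, 1584, 1541 and 1963 in the treated tumors. The groups did not overlap, with means of 1327 ± 75.5 (SD, n = 3) and 1726 ± 198.5 (SD, n = 4), a fold change of 1.3. Tap2 was at 202, 150.3 and 171 in the controls and at 269, 241, 179.9 and 269 in the treated tumors, where STING agonist 3 fell among the controls. The log2 fold changes were 0.38 for Tap1 (SE 0.14, adjusted p = 0.217, edgeR) and 0.46 for Tap2 (SE 0.20, adjusted p = 0.256, edgeR). Under TMM they were 0.12 and 0.20, which is 0.14 and 0.23 above the panel median. Tapbp, the gene of the chaperone that holds class I molecules at the transporter, had a fold change of 1.36, with 3 of 4 treated tumors above every control. On the log2 scale Tapbp was at 0.44, or 0.20 under TMM and 0.18 with DESeq2 size factors.

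Psmb8 and Psmb9 replace catalytic subunits of the standard proteasome and change which peptides are cut. Psmb9 was at 698.5, 566 and 475 normalized counts in the controls and at 995, 725, 675.5 and 983 in the treated tumors. STING agonist 3 was the treated tumor below PBS control 1, and the other 3 lay above every control. The mean went from 579.9 ± 112.5 (SD, n = 3) to 845 ± 168 (SD, n = 4), a fold change of 1.46, or 0.54 on the log2 scale (SE 0.21, adjusted p = 0.223, edgeR). For Psmb8 the fold change was 1.26, or 0.33 on the log2 scale (SE 0.19, adjusted p = 0.364, edgeR), with 2 of 4 treated tumors above every control. Under TMM the log2 values were 0.26 for Psmb9 and 0.060 for Psmb8, and with DESeq2 size factors 0.25 and 0.048.

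Nlrc5 encodes the transactivator that binds class I promoters through the factors at the X and Y boxes. Its normalized counts were 158, 117 and 234 in the controls and 343, 337, 223 and 373 in the treated tumors. STING agonist 3 lay below PBS control 3, and the other 3 treated tumors lay above every control. The means were 169.6 ± 59.6 (SD, n = 3) and 319 ± 66.2 (SD, n = 4), a fold change of 1.88 (exact permutation test, two-sided, p = 0.0857). The log2 fold change was 0.91 (SE 0.27, adjusted p = 0.181, edgeR; 0.0373 with the Wald test of DESeq2 and 0.0373 to 0.408 over the alternatives). It was 0.70 under TMM and 0.68 with DESeq2 size factors. In the 17 alternatives the unadjusted p of Nlrc5 and of H2-T23 was under 0.05 in each, and that of H2-K1 in 8.

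**Figure D2:**
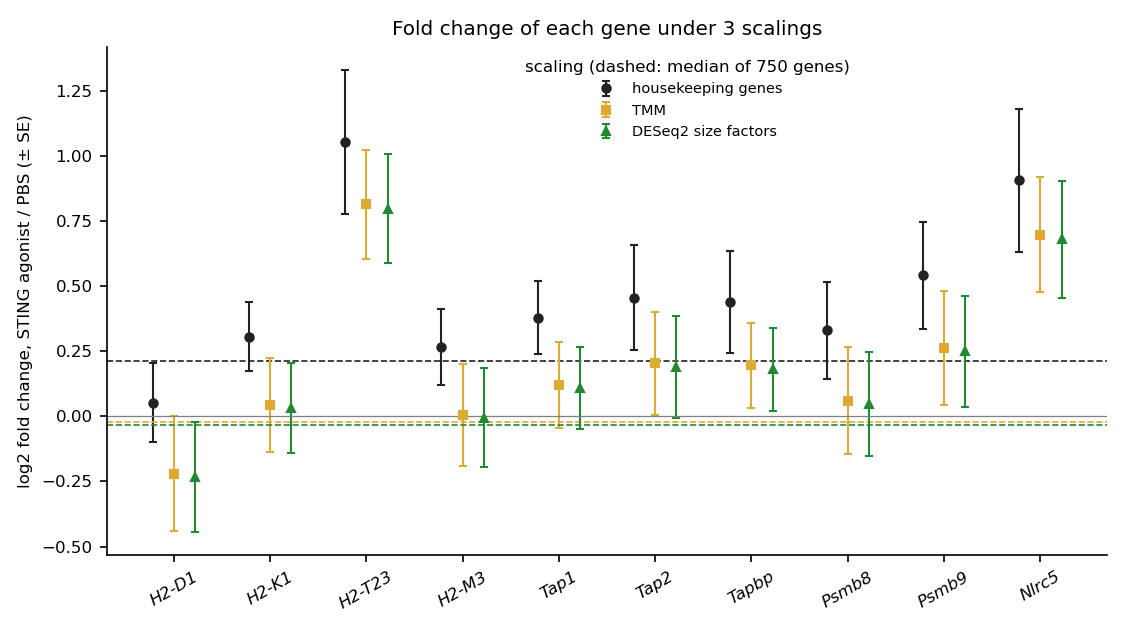
Log2 fold change of STING agonist-treated over PBS tumors (y axis, ± SE of the edgeR fit) for each gene under housekeeping, TMM and DESeq2 scaling, with the median of 750 genes under each as a dashed line. H2-T23 and Nlrc5 stood highest under each scaling, at 1.05 and 0.91 with housekeeping genes, and H2-D1 lay below the dashed line under each and below 0 under TMM and DESeq2 size factors.

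Ratios of 2 genes within a tumor do not depend on the scaling. Of the 45 ratios among the 10 genes, 7 had groups that did not overlap, or 15.6%, against 15% of all 280875 ratios on the panel, a share near the background. H2-T23 took part in 4 of the 7, against H2-D1, H2-K1, Tap1 and Tapbp. The log2 ratio of H2-K1 to H2-T23 averaged 3.42 in the controls and 2.67 in the treated tumors. The log2 ratio of H2-D1 to H2-K1 averaged 1.56 in the controls and 1.32 in the treated tumors. The log2 ratio of Psmb8 to Psmb9 averaged 2.06 in the controls and 1.85 in the treated tumors. These ratios were looked at after the values were seen, and values of different probes are not levels that can be ranked against each other.

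Within the treated group, STING agonist 4 held the highest value of 9 of the 10 genes and STING agonist 1 of the remaining gene, Psmb9. STING agonist 3 held the lowest value in 6 genes and STING agonist 2 in 3. Among the controls, the averaged sample was lowest in 5 genes and highest in 2, H2-D1 and H2-K1. Centered on each gene's mean, the average log2 value of the 10 genes was -0.17, -0.40 and -0.24 in the controls and 0.34, 0.099, -0.038 and 0.41 in the treated tumors.

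Ptprc, the gene of the leukocyte marker CD45, was at 108, 42 and 111 normalized counts in the controls and 257, 166, 140.0 and 267 in the treated tumors. It was low in the averaged control and high in STING agonist 1 and 4, the tumors in which most of the 10 genes were low or high. The log2 ratio of each gene to Ptprc was lower on average in the treated tumors for all 10 genes, as it was for 94.1% of the panel. For 6 of the 10 (H2-D1, H2-K1, Tap1, Tap2, Tapbp and Psmb8) the groups did not overlap, beside 42.6% of the panel. Since Ptprc itself had a log2 fold change of 1.24, above that of each of the 10, a lower ratio is no trait of these genes. The ratio differed least for H2-T23, by -0.27, and for Nlrc5, by -0.385, and most for H2-D1, by -1.27. T cell markers, 7 of 7 on the panel, summed to 173.9, 109.6 and 194.5 in the controls and 409.9, 221, 208.5 and 384 in the treated tumors, and the probe with the most counts in the sum was Cd3d in the controls (mean 65.1) and Cd3g in the treated tumors (mean 102.7). Macrophage or monocyte markers, 5 of 6 on the panel, summed to 1145, 731 and 1447 and to 2047, 1287, 1425.5 and 1925. The probe with the most counts in that sum was Cd68, with a fold change of 1.24, while those of Emr1 and Cd14 were 2.46 and 1.05. The part of leukocytes in the differences of the 10 genes was not tested.

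Hepatocyte markers, 12 of 16 on the panel, summed to 73.4 to 121 in the controls, to 67.2 to 95.8 in STING agonist 1 to 3 and to 1767 in STING agonist 4. All 12 were highest in STING agonist 4, and the probe with the most counts there was Ambp, at 762, which was at 2.44 to 11.7 in the other samples. That tumor was also highest in 8 of the 10 genes over all samples, and the part of hepatocytes in this was not tested. Without it, the log2 fold changes of the 10 genes had a median of 0.32. The labels give the tissue as colon, and the epithelial markers Epcam, Cdh1 and Muc1, 3 of 4 listed, summed to 29.3 to 62.7. Fibroblast or stroma markers, 7 of 7, summed to 14396 to 15434 in the controls and 11434 to 14356 in the treated tumors. The Col3a1 probe had the most counts in the sum, with a mean of 8164 in the controls and 6099.5 in the treated tumors, while Col1a1 had a fold change of 1.66, and the median log2 fold change of the 7 was -0.056.

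Of other class I pathway genes, 9 of 32 listed were on the panel. At an unadjusted p under 0.05, 3 were higher (H2-Q10, Cd1d1 and Psmb10) and 0 lower, beside 17.7% of the panel higher. Under TMM and with DESeq2 size factors 1 was higher, H2-Q10, and 2 were lower, beside 11.6% and 10.8% of the panel higher. H2-Q10 was at 453 normalized counts in STING agonist 4 and at 11 to 13.3 in the other treated tumors. The count of 3 was 0 without STING agonist 4 (panel 10.5%) and 1 without PBS control 1 (12.4%), PBS control 3 (20.4%) or STING agonist 2 (18.1%). With controls 2 and 4 left out 0 were higher and 1 was lower (panel 12% higher). The median log2 fold change was 0.215, beside 0.213 for the panel, and -0.022 under TMM. Psmb10, the remaining immunoproteasome subunit, had a fold change of 1.35 and Cd1d1, a lipid-presenting molecule, of 1.69. Mr1, which presents vitamin B metabolites, was at -0.31 on the log2 scale (SE 0.19, adjusted p = 0.405, edgeR). It was among the 2 lower genes under TMM and with DESeq2 size factors, at -0.57 and -0.58 (unadjusted p = 0.0245 and 0.0204, edgeR). B2m, the light chain of class I molecules, was not analysed here.

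Regulators of class I transcription had, at an unadjusted p under 0.05, 6 of 20 genes higher and 0 lower, beside 17.7% of the panel higher, and 2 of 20 higher under TMM and with DESeq2 size factors, beside 11.6% and 10.8%. Without STING agonist 1 the count was also 2 (panel 10.3%), and with controls 2 and 4 left out it was 3 (12%). The median log2 fold change was 0.28, and 0.034 under TMM. Irf1, a transcription factor of class I promoters, lay between 852.0 and 1142 normalized counts in the controls and between 1449 and 2517 in the treated tumors. The groups of Irf1 did not overlap, and its log2 fold change was 1.01 (SE 0.21, adjusted p = 0.171, edgeR). The adjusted p of Irf1 was 0.00211 with the Wald test of DESeq2 and 0.0475 in edgeR without STING agonist 3. Over the alternatives it ranged from 0.00211 to 0.384. Socs1, a feedback inhibitor, had a fold change of 1.46 and Stat2, a factor of type I interferon signaling, of 1.43. Ifng, the gene of interferon-γ, had low counts, at 3.7 to 8.65 in the controls and at 17.5, 12.2, 5.11 and 15.9 in STING agonist 1 to 4. Its raw count exceeded the mean of the negative probes plus 2 SD in PBS control 3 and STING agonist 1, 2 and 4, and not in the other 4 tumors.

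Receptors that read class I had, at an unadjusted p under 0.05, 6 of 20 genes higher and 0 lower, 5 higher and 0 lower under TMM, and 5 higher and 1 lower with DESeq2 size factors. The panel shares higher were 17.7%, 11.6% and 10.8%. Of the 20, 13 averaged under 20 counts, and 2 of the 6 were among them. The count of 6 was 1 without STING agonist 1 (panel 10.3%), 3 without STING agonist 4 (10.5%) and 1 with controls 2 and 4 left out (12%). The median was 0.31, and 0.073 under TMM. Klrc1, which encodes NKG2A and binds the product of H2-T23, was at 34.2, 29.1 and 49 in the controls and at 113, 55, 51.1 and 96.2 in the treated tumors. All 4 treated tumors lay above every control, STING agonist 3 by the smallest gap. The log2 fold change of Klrc1 was 1.06 (SE 0.37, adjusted p = 0.204, edgeR), of Klra2, a Ly49 receptor, 1.33 (SE 0.47), of Klrk1, the gene of NKG2D, 1.16 (SE 0.41) and of Cd8a, the class I coreceptor, 1.26 (SE 0.48).

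At the same limit MHC class II had 6 of 9 genes higher and 0 lower, and 5 higher under TMM and with DESeq2 size factors. The panel shares higher were 17.7%, 11.6% and 10.8%. The median of MHC class II was 1.10, or 0.84 under TMM. Fold changes were 4.8 for H2-Eb1, 5.63 for Cd74, 5.76 for H2-Ab1 and 6.34 for H2-Aa. Interferon-induced antiviral genes had 6 of 18 higher and 0 lower, beside 17.7% of the panel higher. Under TMM and with DESeq2 size factors 1 of 18 was higher, where 11.6% and 10.8% of the panel were. Their count was 3 without STING agonist 1, beside 10.3% of the panel. The median was 0.43, and 0.19 under TMM, with housekeeping-scaled fold changes of 2 for Zbp1, 1.62 for Ifi44, 1.57 for Ifit2 and 1.48 for Ifit3.

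**Figure D3:**
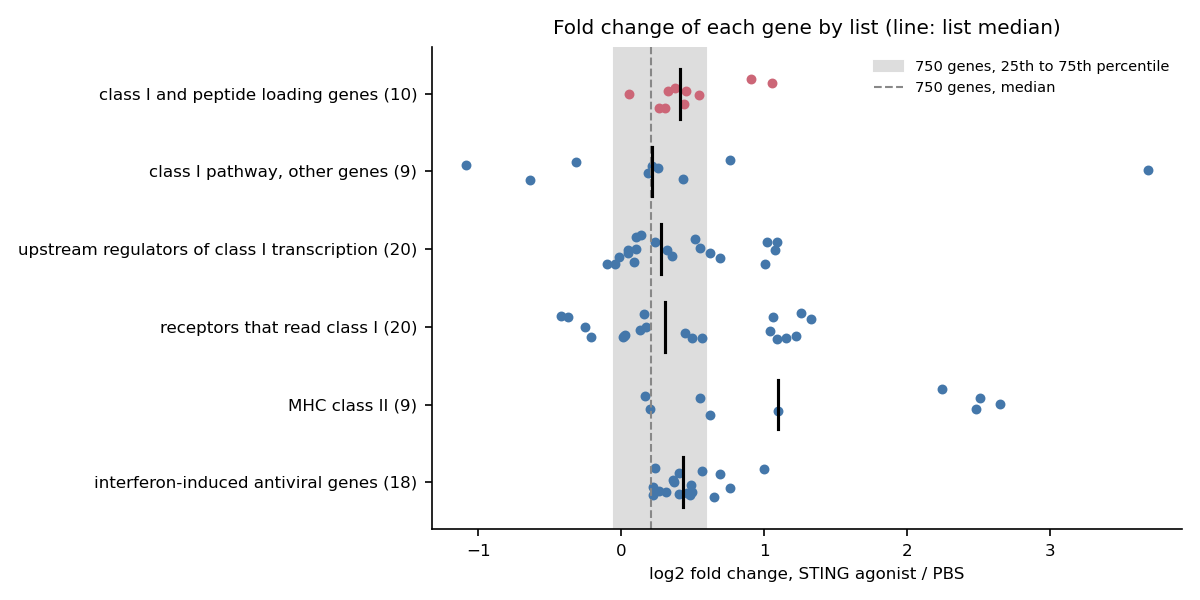
Log2 fold change of each gene (points) by list, with the list median as a line and the 25th to 75th percentile of 750 genes, -0.051 to 0.59, as a gray band. The medians were 0.41 for the 10 genes and 1.10 for MHC class II. The point of H2-Q10, the largest among other class I genes, rests on STING agonist 4 and on controls near the negative probes. Without that tumor the log2 fold change of H2-Q10 fell below that of Cd1d1.

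The panel genes whose profile over the 7 samples came closest to the mean profile of the 10 were C2, Tgfb3, Cyld, Ripk2 and Stat2, of 509 genes with a mean of at least 20 counts outside the 10. Their root mean square difference, on centered log2 values, was 0.108, 0.109, 0.110, 0.112 and 0.113, against a median of 0.36. Among the 10, Tap1 lay closest to their own mean, at 0.072, and H2-T23 farthest, at 0.37.

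**Figure D4:**
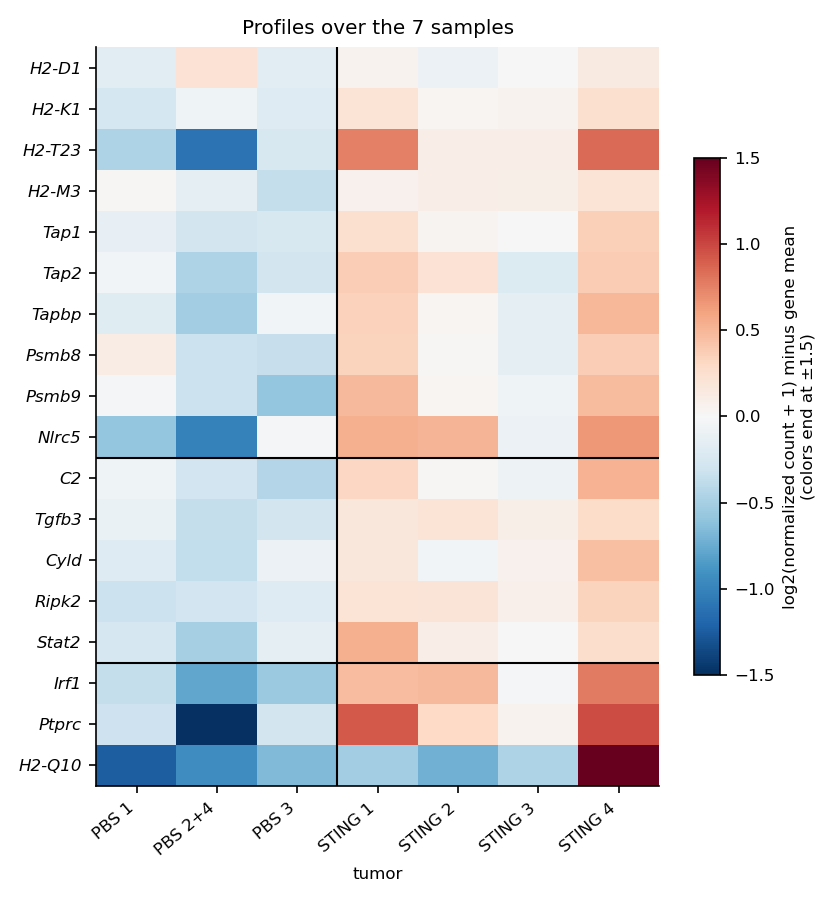
Log2(normalized count + 1) minus the gene's mean (color, ending at ±1.5) in 7 samples for the 10 genes, the 5 genes of closest profile, and Irf1, Ptprc and H2-Q10. STING agonist 4 and 1 were high and the averaged PBS control low in most of the genes, while H2-Q10 was high in STING agonist 4, at 453 normalized counts.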

How the data were processed

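Total RNA of 8 whole tumors was measured by the authors with the PanCancer Immune Profiling panel for mouse (NanoString nCounter), and the deposited counts of 784 probes (750 immune genes, 20 housekeeping genes, 8 negative and 6 positive controls) were unscaled whole numbers. Groups and replicate numbers came from the labels, and dose, schedule and age from the study's own description. Counts were scaled to the geometric mean of the housekeeping genes. This assumes that these genes do not respond to treatment. Controls 2 and 4 were averaged (rounded mean). Treated and control tumors were tested in edgeR 4.0.16 under R 4.3.3 by quasi-likelihood over all 750 genes, with no covariate, no filter and Benjamini-Hochberg adjustment, after the test was tried on simulated data. Single values were compared by exact permutation. Ratios, lists and markers were described without a test. Probes of related class I genes may share targets, which was not tested.

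Alternatives were TMM scaling, DESeq2 size factors, a filter at a mean of 20 counts, subtraction of the negative control mean, DESeq2 1.42.0 with its Wald test, a fit in limma 3.58.1 on log2(normalized count + 1), all 8 tumors separate without and with a replicate block, controls 2 and 4 both left out, and each tumor left out in turn. DESeq2 gave no p for 11 genes. Named were all 10 genes, up to 4 genes of each list with the lowest unadjusted p at a mean of at least 20 counts, Irf1, Ifng and Ptprc, and the 5 genes of closest profile; 1 gene that this rule names is not reported here. The genes and lists were chosen with earlier results of these data known. Tables and figures were made with Python 3.11.15.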

Additional observations from a re-analysis of the deposited data

Results flagged for a closer look

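In 1 of the 36 genes examined, a treated tumor stood far from the other 3. H2-Q10 was at 453 normalized counts in STING agonist 4, against 12.8, 11 and 13.3 in STING agonist 1 to 3 and 7.4 to 11.5 in the controls. The gap to the nearest tumor was 0.995 of the range of the 4 tumors. Chance passes the limit of Dixon's test in about 1 in 20 groups, or 1.8 of 36. The hepatocyte markers were also highest in that tumor, and their part in the value of H2-Q10 was not tested. The raw count of H2-Q10 did not exceed the mean of the negative probes plus 2 SD in PBS controls 1, 2 and 4, so no fold change is given. The control group, with 3 samples, was not examined in this way.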

How the results depend on the processing

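The log2 fold change of H2-D1, 0.052, was -0.22 under TMM, -0.23 with DESeq2 size factors, -0.017 with all 8 tumors separate, -0.0060 with all 8 separate and a replicate block, -0.016 without PBS control 1 and -0.0090 without PBS control 3. With 1 tumor left out it ranged from -0.016 to 0.090. That of H2-M3, 0.27, was -0.0058 with DESeq2 size factors. Of the 10 genes, 6 were higher at an unadjusted p under 0.05, and this was 2 under TMM, 2 with DESeq2 size factors, 3 without controls 2 and 4, and 2 to 6 with 1 tumor left out. The Wald test of DESeq2 gave 2 an adjusted p under 0.05, where edgeR gave 0. Groups lay apart in 4, or 1 under TMM, 1 with DESeq2 size factors and 4 to 8 with 1 tumor left out. The panel count of 133 was 87, 81 and 77 to 153 in the same order. The median of the 10 genes, 0.41, was 0.16, 0.14 and 0.32 to 0.48, and that of the panel, 0.21, was -0.021, -0.035 and 0.17 to 0.36. With all 8 tumors separate it was 0.45 for the 10 genes, and 0.44 when a replicate block was added. Deviations of tumors of the same number correlated at -0.276 to -0.089. Tumors of different number were not compared, so these values cannot settle whether the numbers pair tumors. H2-Q10 and Ifng got no adjusted p from DESeq2. The cause of these differences was not tested.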
